A study of Mus musculus with 12 samples.

Results

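The miR-15/16 family was measured in the mouse hippocampus with TaqMan OpenArray assays. Its members were chosen by name, as every assay without the passenger strand mark (#) whose number is that of miR-15, miR-16, miR-195, miR-322 or miR-497, with any letter or arm. This gave 6 assays (miR-15a, miR-15b, miR-16, miR-195, miR-322 and miR-497) of the 619 miRNA assays in the deposited table.

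The study asked how loss of the P2X7 receptor, an ion channel opened by ATP, alters hippocampal miRNAs in healthy mice and after status epilepticus (SE), a prolonged seizure. There were 12 samples in 4 groups of 3, and a sample pooled the ipsilateral hippocampi of 2 mice, so the spread within a group is a spread between pools. Each OpenArray assay amplifies 1 miRNA by PCR and gives its threshold cycle (Ct), where less miRNA needs more cycles and 1 cycle is about a factor of 2. Cell types were not separated, so fewer cells of a type and less RNA per cell cannot be told apart.

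The wt control group was wild-type C57BL/6 mice that received vehicle (0 µg of kainic acid, KA) into the amygdala. The P2rx7-/- control group received the same vehicle and lacked exon 2 of P2rx7. The wt post-SE and P2rx7-/- post-SE groups received 0.3 µg KA, a glutamate receptor agonist, which triggered the seizure. Mice of all 4 groups received 6 mg/kg lorazepam 40 min after the injection and were sampled at 8 h. The labels give an age of 8 weeks, and the methods a range that starts there. No assay of the table measures P2rx7 mRNA.

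A miRNA's seed, the bases near its 5′ end, does most of the pairing with target mRNAs, so miRNAs with one seed can share targets. The miR-15/16 family is known for slowing the cell cycle, through targets that include cyclins, and for lowering the survival protein Bcl2. In the brain its members have been studied in neuronal death after ischemia.

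The mature sequences are shown because the shared seed defines the family and the rest of the sequence is what an assay has to tell apart. All 6 members matched an entry of the RefSeq table for GRCm38.p6. Capitals mark the seed (bases 2 to 8 from the 5′ end).

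miR-15a: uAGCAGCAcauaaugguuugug
miR-16: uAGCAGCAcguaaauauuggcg
miR-15b: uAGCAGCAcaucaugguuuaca
miR-195: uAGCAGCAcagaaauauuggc
miR-497: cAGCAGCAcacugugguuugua
miR-322: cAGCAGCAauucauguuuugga

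All 6 carry one seed, which 10 of the 1679 mature mouse miRNAs of the table (0.596%) have. Outside it they differ in pairs of uneven closeness. Counted from 1 at the 5′ end, with the base of the first-named miRNA written first, miR-16 and miR-195 were identical at 19 of 21 positions and differed by G10A and U11G. Next came miR-15a and miR-15b, identical at 18 of 22 positions, with A12C, G20A, U21C and G22A. The members furthest apart were miR-16 and miR-497, with 11 of 22 positions identical, and miR-195 and miR-322, with 11 of 21.

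The members come from 4 loci. miR-15a (chr14:61632075-61632096, minus strand) and 1 copy of miR-16 (chr14:61631936-61631957, minus strand) lie within the long noncoding RNA gene Dleu2. miR-15b (chr3:69009775-69009796, plus strand) and the other copy of miR-16 (chr3:69009918-69009939, plus strand) lie within the protein-coding gene Smc4. Both copies give the same mature sequence, so the miR-16 assay cannot tell them apart. miR-497 (chr11:70234730-70234751) and miR-195 (chr11:70235062-70235082) are neighbours on the plus strand of chromosome 11. miR-322 (chrX:53054306-53054327, minus strand) lies on the X chromosome within the long noncoding RNA gene C430049B03Rik.

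A Ct below 28 in each of the 12 samples was found for 335 of the 619 miRNA assays, among them 5 of the 6 members. The exception was miR-322, which had a Ct in 11 samples and none in wt post-SE replicate 1. Between 470 and 538 miRNA assays had a Ct in each sample. Levels are given as −ΔCt, the mean Ct of the 335 assays in a sample minus the Ct of the miRNA there. The scale is log2, and a higher value means more miRNA relative to the others. Each assay was read 1 time per sample, so no error within a sample can be given.

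One sample stood apart from the other 11. The rank correlation of wt control replicate 1 with each of the others, over the 335 assays, was between 0.660 and 0.737, against 0.872 to 0.989 for the 55 pairs among the others. Its repeated wells of the control RNA snoRNA135 also varied more, with an SD of 3.63 cycles against 0.197 to 1.38 in the other samples. Calls and median log2 differences of the members that rest on it are given with and without it.

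The members spanned a wide range of levels. Of the 335 assays, miR-16 had the highest mean level, 7.85 ± 0.477 (SD, n = 12), and its Ct ran from 10.2 to 11.8. This is close to the lowest Ct in the deposited table, 10, and of the 33 miRNA assays with a median Ct below 12, 8 had a Ct in all samples, so assays brighter than miR-16 in some samples can be absent from the 335. After it came miR-195 at 4.31 ± 0.973 (rank 38), miR-15a at 1.58 ± 1.02 (rank 112) and miR-15b at 1.29 ± 2.42 (rank 121). The lowest were miR-497 at 0.93 ± 0.629 (rank 135) and miR-322 at −1.85 ± 0.486 (n = 11). Different assays can amplify with different efficiency, so this order is one of assay signal.

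Of the members, miR-16 was the highest in 11 of 12 samples, the exception being P2rx7-/- control replicate 1, where miR-15b was 8.13 and miR-16 7.39. miR-195 was above miR-15a and miR-497 in 12 of 12 samples and above miR-15b in 11, with the same exception, and miR-322 was the lowest in the 11 samples where it had a Ct. Among the other 3 the order was not fixed. miR-15a was above miR-497 in 8 of 12 samples by a mean of 0.65 ± 1.15, miR-15a was above miR-15b in 10, and miR-497 was above miR-15b in 7.

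**Figure D1:**
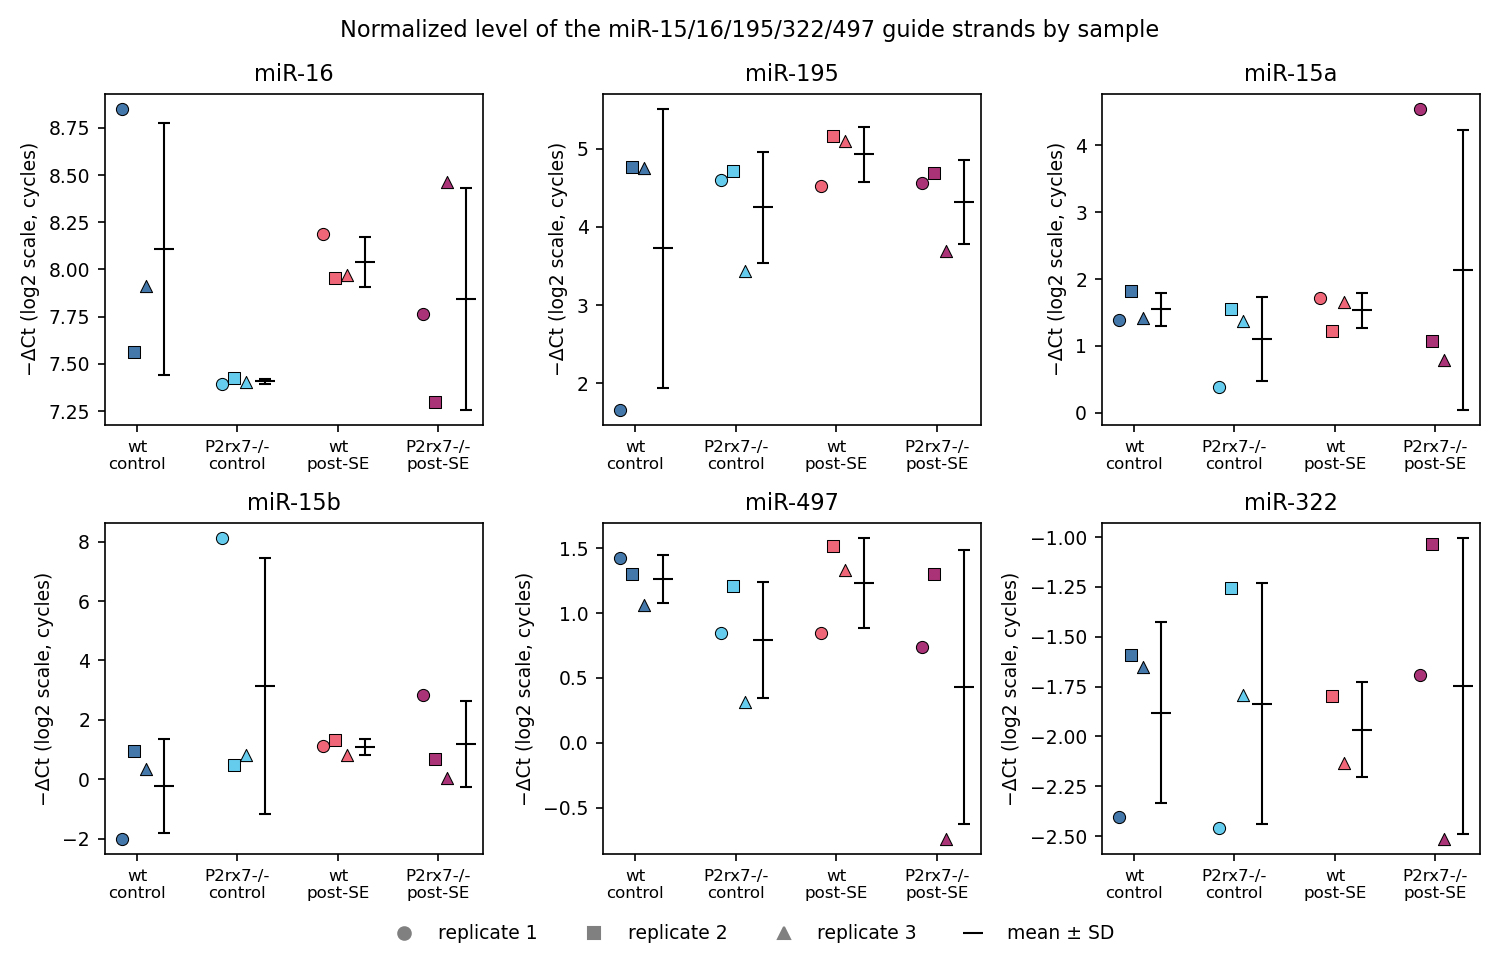
Level of each member (−ΔCt, log2 scale, vertical axes that differ between panels) in the 4 groups, with 1 point per pooled sample, marker shapes for replicate numbers and bars for group means. Single samples lie far from the rest for miR-15a (4.55), miR-15b (8.13 and −2.03) and miR-195 (1.66).

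miR-16, made from 2 loci, had levels of 8.85, 7.56 and 7.91 in the wt controls, 7.39, 7.42 and 7.40 in the P2rx7-/- controls, 8.19, 7.96 and 7.97 after SE in wt, and 7.76, 7.30 and 8.46 after SE in P2rx7-/- mice. The P2rx7-/- controls lay within a span far narrower than the wt controls and below each of them, and the highest value was that of wt control replicate 1. The group means were 8.11 ± 0.666 (SD, n = 3 here and below), 7.41 ± 0.0144, 8.04 ± 0.131 and 7.84 ± 0.587. Its SD within groups, 0.449, was at the 27.2 percentile of the 335 assays, whose median was 0.636.

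miR-195 is nearest to miR-16 in sequence but comes from the miR-497 locus. Its levels were 1.66, 4.76 and 4.75 in the wt controls, 4.61, 4.71 and 3.44 in the P2rx7-/- controls, 4.52, 5.16 and 5.10 after SE in wt, and 4.57, 4.69 and 3.70 after SE in P2rx7-/- mice. The lowest by far was wt control replicate 1, and the next lowest samples were replicate 3 of both P2rx7-/- groups. With all samples the groups overlapped, but the other 2 wt controls lay above each P2rx7-/- sample, control or post-SE. The means were 3.72 ± 1.79, 4.25 ± 0.708, 4.93 ± 0.352 and 4.32 ± 0.541, and the SD within groups fell from 1.01 to 0.512 without wt control replicate 1.

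miR-497, cut from the neighbouring hairpin, had levels of 1.43, 1.30 and 1.06 in the wt controls, 0.84, 1.21 and 0.32 in the P2rx7-/- controls, 0.85, 1.52 and 1.33 after SE in wt, and 0.74, 1.30 and −0.74 after SE in P2rx7-/- mice. The lowest samples were again replicate 3 of the P2rx7-/- groups, and wt control replicate 1 was not low. All 4 groups overlapped, with means of 1.26 ± 0.185, 0.79 ± 0.447, 1.23 ± 0.346 and 0.43 ± 1.05.

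miR-15a, from the Dleu2 locus, had levels of 1.39, 1.83 and 1.42 in the wt controls, 0.38, 1.56 and 1.37 in the P2rx7-/- controls, 1.72, 1.22 and 1.65 after SE in wt, and 4.55, 1.08 and 0.79 after SE in P2rx7-/- mice. P2rx7-/- post-SE replicate 1 was high, and the other 2 samples of its group were lower than each wt post-SE sample. The means were 1.55 ± 0.245, 1.10 ± 0.630, 1.53 ± 0.268 and 2.14 ± 2.09.

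miR-15b, from the Smc4 locus, had levels of −2.03, 0.96 and 0.35 in the wt controls, 8.13, 0.47 and 0.82 in the P2rx7-/- controls, 1.12, 1.32 and 0.81 after SE in wt, and 2.82, 0.68 and 0.04 after SE in P2rx7-/- mice. P2rx7-/- control replicate 1 was far above every other sample, with a Ct of 11.03, wt control replicate 1 was far below, and P2rx7-/- post-SE replicate 1 was the next highest. The means were −0.24 ± 1.58, 3.14 ± 4.33, 1.08 ± 0.254 and 1.18 ± 1.46, and the SD within groups, 2.42, was at the 94.0 percentile of all assays.

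miR-322, the rodent counterpart of human miR-424, had levels of −2.40, −1.59 and −1.65 in the wt controls, −2.46, −1.25 and −1.79 in the P2rx7-/- controls, −1.80 and −2.13 in the 2 wt post-SE samples with a Ct, and −1.69, −1.03 and −2.52 after SE in P2rx7-/- mice. The groups overlapped throughout. Its means were −1.88 ± 0.452, −1.84 ± 0.604, −1.97 ± 0.237 (n = 2) and −1.75 ± 0.743.

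Set against each member's own median over the 12 samples, 9 of the 60 values of the 5 members lay more than 1 cycle away, in 5 samples. In wt control replicate 1, miR-195 (−2.99) and miR-15b (−2.84) were low while miR-16 (1.02) was high. In P2rx7-/- control replicate 1, miR-15b was high (7.31) and miR-15a low (−1.02). P2rx7-/- post-SE replicate 1 was high for miR-15a (3.15) and miR-15b (2.01), and replicate 3 of the same group was low for miR-497 (−1.88). Last, P2rx7-/- control replicate 3 was low for miR-195 (−1.21). No sample moved all 5 members the same way.

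**Figure D2:**
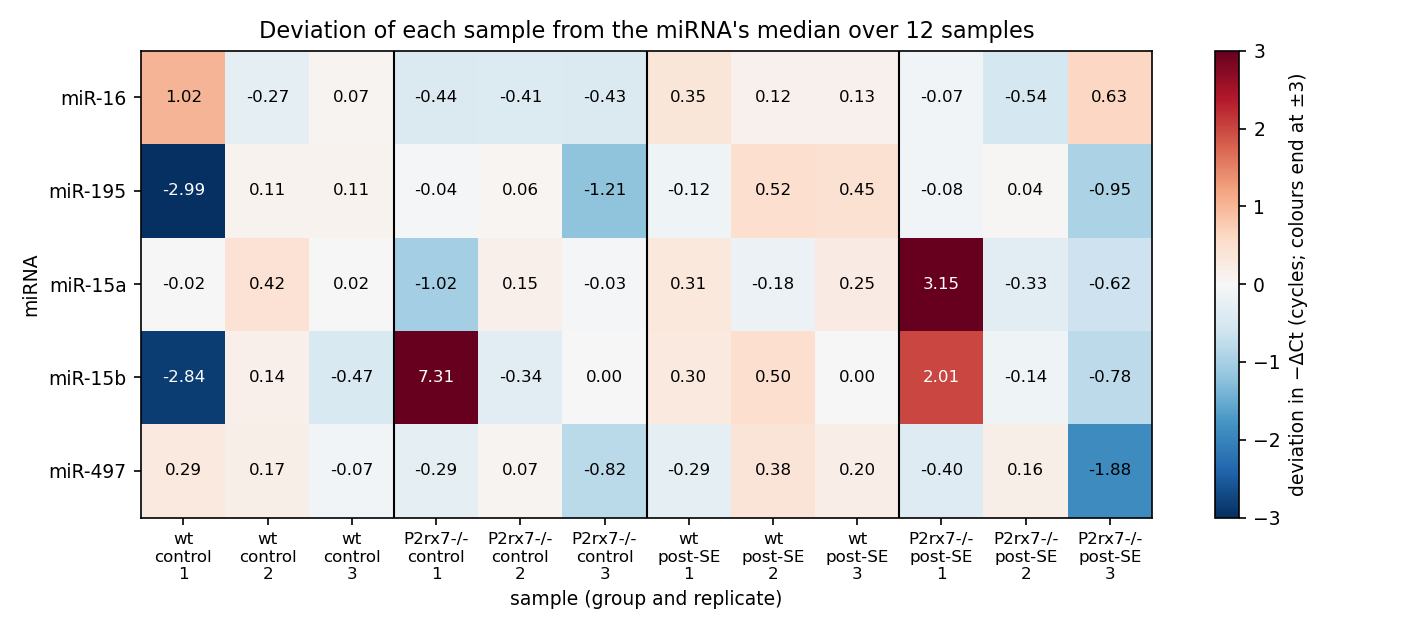
Deviation of each sample (columns, by group and replicate) from the median of the miRNA (rows of cells) over 12 samples, in cycles of −ΔCt, with colours ending at 3 and −3. The values beyond 1 cycle sit in single cells, such as 7.31 for miR-15b in P2rx7-/- control replicate 1, and no column is 1 colour.

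To compare groups, the fold change (FC) of each sample was taken against the mean −ΔCt of the reference group, and the arithmetic mean of the 3 FCs was called up above 1.5 and down below 0.6, the thresholds in the study's methods. The log2 difference of the group means was tested with limma, fitted to all 12 samples, with Benjamini-Hochberg adjustment over the 335 assays. A two-sided exact permutation test of 3 samples against 3 cannot give a p below 0.1. Over the 8 contrasts fitted, limma gave 0 of 5 members and 0 of 335 assays (0%) an adjusted p below 0.05. At an unadjusted p below 0.05 it gave 0 members in each, and the test of group means named in the methods gave 0 members in the 4 comparisons it was run on.

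The first comparison, of P2rx7-/- with wt controls, asks what the receptor's absence does without a seizure. By FC 2 of 5 members were called, both up, against 36.7% of all assays. The median log2 difference of the 5 was −0.44, against −0.02 over all assays, with 2 members higher and 3 lower. These medians were −0.39 and −0.002 without wt control replicate 1. For 1 of 5 members, miR-16, the groups did not overlap, against 14.0% of all assays.

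That member had FCs of 0.610, 0.622 and 0.613, a mean of 0.615 ± 0.006 (SD, n = 3) just above the threshold for down, and an exact permutation p of 0.1. Its log2 difference in limma was −0.70 ± 0.39 (SE, adjusted p 0.652), with a 95% interval from −1.57 to 0.17. Without wt control replicate 1 it was −0.33, an FC of 0.795, whereas without wt control replicate 2 or 3 the FC was 0.509 or 0.574 and miR-16 was called down. The small spread of the FCs is that of the P2rx7-/- samples alone and does not include the spread of the wt controls.

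The size of the change in miR-15b and the call of miR-195 rested on single samples. miR-15b had FCs of 331, 1.64 and 2.08 (mean 111 ± 190), the mean without the highest sample was 1.86, and the log2 difference was 3.38 ± 1.76 (SE, adjusted p 0.615 in limma). miR-195 had a mean FC of 1.55 ± 0.635 and a log2 difference of 0.53 ± 0.77 (SE, adjusted p 0.868), and without wt control replicate 1 the FC was 0.756 and the difference −0.51. It was not called without P2rx7-/- control replicate 1 (1.40) or 2 (1.33) either. Without wt control replicate 1 the called member was miR-15b, at an FC of 60.0, and 25.7% of all assays were called. That FC still holds P2rx7-/- control replicate 1 (8.13). The mean of 1.86 is measured from a control mean that wt control replicate 1 (−2.03) lowers. Apart from these samples, the P2rx7-/- controls (0.47 and 0.82) lay between the wt controls (0.35 and 0.96), so the call of miR-15b rested on them as well. The members not called, miR-15a and miR-497, had mean FCs of 0.780 ± 0.295 and 0.743 ± 0.221.

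The second comparison, of wt post-SE with wt control samples, asks for the response to the seizure with the receptor present. Again 2 of 5 members were called, both up, against 35.8% of all assays, and 0 of 5 had groups that did not overlap, against 11.0%. The called members were miR-15b, with a mean FC of 2.53 ± 0.436, and miR-195, with 2.35 ± 0.529 and a log2 difference of 1.20 ± 0.77 (SE, adjusted p 0.664 in limma). Without wt control replicate 1, low for both, these FCs were 1.36 and 1.15 and 0 members were called, against 23.0% of all assays. The other 3 members were near 1, with mean FCs of 1.00 for miR-15a, 0.955 for miR-16 and 0.998 for miR-497. The median log2 difference of the 5 was −0.01, against −0.09 over all assays, and without wt control replicate 1 these were 0.17 and 0.02.

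Within the P2rx7-/- mice, SE against control gives the response without the receptor. Here 1 member was called up and 1 down, 2 of 5 against 25.1% of all assays, and 0 of 5 had groups that did not overlap, against 6.57%. miR-15a had FCs of 10.9, 0.980 and 0.802 (mean 4.23 ± 5.78), and the mean without the highest sample was 0.891. miR-15b had FCs of 0.804, 0.182 and 0.116 (mean 0.367 ± 0.379), measured from a control mean that replicate 1 raises. Without that control sample its log2 difference of −1.96 became 0.54, with an FC of 2.07 that was called up. This FC includes P2rx7-/- post-SE replicate 1 (2.82). Of the other post-SE samples, 0.68 lay between the remaining controls (0.47 and 0.82) and 0.04 below them. miR-16, miR-195 and miR-497 had mean FCs of 1.43 ± 0.591, 1.09 ± 0.361 and 0.911 ± 0.540, and miR-16 was called up without P2rx7-/- post-SE replicate 1 (1.51) or 2 (1.68). The median log2 difference was 0.07, against 0.02 over all assays.

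After SE, the P2rx7-/- samples were set against the wt samples, the comparison that asks whether the receptor alters miRNA levels after a seizure. Here too 2 of 5 members were called, both up, against 21.5% of all assays, and 0 of 5 did not overlap, against 5.67%. Both calls rested on P2rx7-/- post-SE replicate 1. miR-15a had FCs of 8.10, 0.729 and 0.597 (mean 3.14 ± 4.30, and 0.663 without the highest), and miR-15b had 3.34, 0.756 and 0.484 (mean 1.53 ± 1.58, and 0.620 without the highest). Without that sample their log2 differences were −0.60 and −0.72, and without wt post-SE replicate 3 the FC of miR-15b was 1.39, not called. The other members had mean FCs of 0.923 ± 0.382 (miR-16), 0.683 ± 0.226 (miR-195) and 0.669 ± 0.397 (miR-497). Without wt post-SE replicate 1 those of miR-195 and miR-497 were 0.594 and 0.586, and without P2rx7-/- post-SE replicate 2 that of miR-497 was 0.481, all called down. The log2 difference of miR-497 was −0.80 ± 0.49 (SE, adjusted p 0.999 in limma), the median of the 5 was −0.20, and the median of all assays was −0.01.

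**Figure D3:**
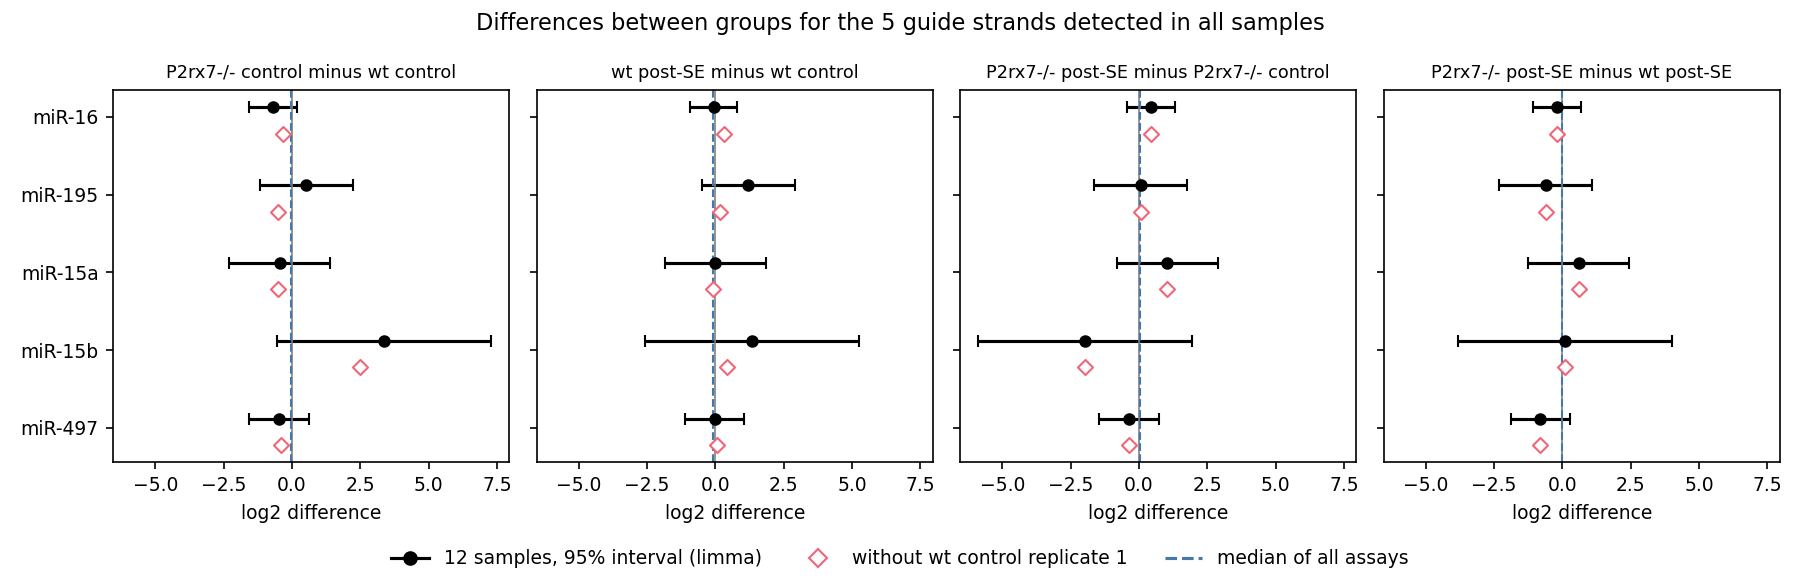
Log2 differences between group means for the 5 members in the 4 comparisons (horizontal axes, log2 scale), with 95% confidence intervals from limma (bars) for all 12 samples (filled circles), values without wt control replicate 1 (open diamonds) and the median of all assays (dashed line). Each interval of the fit to all samples includes 0.

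The study also set the P2rx7-/- post-SE samples against the wt controls, which shares its samples with the comparisons above. There 3 of 5 members were called, all up, against 33.7% of all assays, and 0 of 5 did not overlap, against 10.1%. The median log2 difference of the 5 was 0.59, against −0.09 over all assays, and without wt control replicate 1 these were 0.11 and −0.01. The called members were miR-15a (mean FC 3.11 ± 4.25), miR-15b (3.82 ± 3.95) and miR-195 (1.58 ± 0.521). Without wt control replicate 1 the FC of miR-195 was 0.770 and 2 members were called, against 20.3% of all assays. Without P2rx7-/- post-SE replicate 1 the mean FC of miR-15a was 0.656, that of miR-15b 1.55 and that of miR-195 1.47, so that miR-15b was called. Without P2rx7-/- post-SE replicate 2 that of miR-195 was 1.39, not called, and that of miR-497 was 0.471, called down.

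The remaining contrasts use the design more fully. With SE averaged over genotypes, 6 samples against 6, the median log2 difference of the members was 0.18 (−0.05 over all assays). Without wt control replicate 1 it was 0.12 (0.02 over all assays). The lowest adjusted p with all samples was 0.829 in limma, for miR-195 (0.64 ± 0.54, SE, and 0.12 without wt control replicate 1). With genotype averaged over treatments the median was −0.04 (−0.01 over all assays), and −0.26 (0.02 over all assays) without wt control replicate 1. With all samples miR-497 had the lowest p among the members, with a log2 difference of −0.64 ± 0.35 (SE, adjusted p 0.930 in limma). In the interaction, which tests whether the response to SE differed between genotypes, the median was −0.33 (0.05 over all assays) and the lowest adjusted p 0.851. Without wt control replicate 1 the interaction median was −0.11 (−0.02 over all assays) and the lowest adjusted p in limma 0.980. For scale, limma gave an unadjusted p below 0.05 to 20, 13, 10 and 4 of the 335 assays in the 4 comparisons, to 12 in P2rx7-/- post-SE against wt control, to 8 in the interaction, and to 11 and 16 in the averaged contrasts.

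miR-322 was fitted among the 478 assays with a Ct in at least 2 samples of every group, with the missing sample left out. Its mean FCs were 1.09 for genotype in controls, 0.949 for SE in wt (n = 2), 1.16 for SE in P2rx7-/- and 1.27 for genotype after SE. None was called, against 40.8%, 39.5%, 31.8% and 28.03% of the 478 assays in these comparisons. The log2 differences of miR-322, from −0.09 to 0.22, were smaller than the SD of its groups.

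Because single samples moved the means, the median of each group was also taken, a step chosen after seeing the data. By medians, wt post-SE was the highest group for 5 of 5 members, against 28.7% of all assays. The medians, controls first and wt before P2rx7-/- in each pair, were 7.91, 7.40, 7.97 and 7.76 for miR-16, and 4.75, 4.61, 5.10 and 4.57 for miR-195. For miR-497 they were 1.30, 0.84, 1.33 and 0.74, for miR-15a 1.42, 1.37, 1.65 and 1.08, and for miR-15b 0.35, 0.82, 1.12 and 0.68. The range of the 4 medians, between 0.53 and 0.77, was smaller than the SD within groups for miR-15a, miR-15b, miR-195 and miR-497, and larger for miR-16 (0.57 against 0.449). For miR-195 this rested on wt control replicate 1, without which the range was 0.53 and the SD 0.512, and the other 4 members kept their side. With miR-322 the wt post-SE median, −1.97, was the lowest of the 4.

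The count of 5 depended on single samples. It was between 2 and 5 with 1 sample left out, the 2 being without P2rx7-/- post-SE replicate 2 (22.4% of all assays) and 3 being the count without wt control replicate 3 (23.0%) or without P2rx7-/- post-SE replicate 3 (27.5%). With wt control replicate 1 left out it was 5 (32.8%). Scaling to control wells shifts every assay of a sample alike and so does not bear on the members alone. With the snoRNA202 and the snoRNA135 wells the count was 1, and the share of all assays fell as well, to 10.1% and 15.2%. It was 4 with the median Ct (22.1%), 3 with every assay detected (26.6%) and 4 with quantile normalization (28.4%). As a description, the 5 medians in P2rx7-/- post-SE were all below those in wt post-SE, as were those of 58.8% of all assays, and this count too depended on single samples. Leaving out replicate 2 of the P2rx7-/- post-SE group made it 2 (52.2% of all assays) and leaving out its replicate 3 made it 3 (60.9%). It was 4 with quantile normalization (54.6%), 4 with the snoRNA202 wells (38.5%) and 3 with the snoRNA135 wells (37.9%). No test was made of these counts.

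Concordance over samples was measured for the 10 pairs of the 5 members. Their median Pearson correlation was −0.036, from −0.591 to 0.421, with 4 of 10 positive, and the median over all 55945 pairs of assays was 0.002. The median of the 10 was 0.044 without wt control replicate 1, and 0.082 for deviations from the group means. The members' median thus lay close to that of assays at large. No pair passed the adjustment over the 10 pairs with all 12 samples.

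The pair nearest in sequence, miR-16 and miR-195, had the lowest correlation. Pearson's r was −0.59 (permutation p 0.0447, adjusted 0.444) and Spearman's rho −0.19 (permutation p 0.555, adjusted 0.732) over 12 samples. Without the 2 samples farthest from the median of miR-16, wt control replicate 1 and P2rx7-/- post-SE replicate 3, r was 0.41, and without the 2 farthest from the median of miR-195 it was −0.42, so its sign depended on which samples were left out. Without wt control replicate 1 alone it was −0.06, and for deviations from group means over all samples −0.82.

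For the pairs from the host genes Dleu2 and Smc4, r is again given without the 2 samples farthest for either member. miR-15a and miR-16 had r −0.01 (permutation p 0.968) and rho 0.20 (permutation p 0.545), and r −0.19 or 0.25 without the 2 farthest for miR-15a or for miR-16. For miR-15b and miR-16, r was −0.51 (permutation p 0.0888, adjusted 0.444), rho −0.39 (permutation p 0.209), and r −0.11 or −0.26 without the 2 farthest for miR-15b or for miR-16. miR-15a and miR-15b, alike in sequence, had r −0.06 (permutation p 0.729), rho 0.15 (permutation p 0.635), and r 0.21 without the 2 farthest for miR-15a. Without the 2 farthest for miR-15b, wt control replicate 1 and P2rx7-/- control replicate 1, their r was 0.90, and the samples kept include P2rx7-/- post-SE replicate 1, high for both.

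The neighbours miR-195 and miR-497 were correlated once wt control replicate 1 was left out. Over 12 samples r was 0.22 (permutation p 0.445, adjusted 0.911) and rho 0.56 (permutation p 0.0631, adjusted 0.631). Without the 2 samples farthest from the median of miR-195, wt control replicate 1 and P2rx7-/- control replicate 3, r was 0.95, and without the 2 farthest for miR-497 it was −0.18. Over the 11 samples other than wt control replicate 1, a choice made after seeing the data, r was 0.86 (permutation p 0.00212, adjusted over the 10 pairs 0.0212) and rho 0.93 (permutation p 0.00018, adjusted 0.0018). Of these 11, leaving out the 2 farthest, P2rx7-/- control replicate 3 and P2rx7-/- post-SE replicate 3, gave r 0.82.

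Over the 11 samples that relation held under other scalings and within groups. Under the 5 other normalizers r over the 11 samples ran from 0.77 to 0.89, against 0.18 to 0.30 over 12 samples, and with 1 further sample left out it ran from 0.84 to 0.95. For deviations from group means over the 11 samples it was 0.85, against 0.30 over all 12. Samples numbered 3 were the lowest for both miRNAs in the 2 P2rx7-/- groups. In the 7 samples left without wt control replicate 1 and all samples of that number, r was 0.84 (exact permutation p 0.00337) and rho 0.86 (exact permutation p 0.0238), and r was 0.95 in the 5 without the 2 farthest. That choice was also made after seeing the data, and these p are for this pair alone. The relation was not the closest of either member. Of the 334 other assays, miR-497 ranked 15 by r with miR-195, and miR-195 ranked 3 by r with miR-497, over the 11 samples, and 85 and 81 over all 12.

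Of the other pairs, miR-16 and miR-497 ran opposite within groups without wt control replicate 1 (r −0.90), but r over these 11 samples was −0.45 (permutation p 0.162, adjusted 0.812), rho −0.02 (permutation p 0.968), and r 0.33 or −0.07 without the 2 farthest for miR-16 or for miR-497. Among the rest, miR-15b with miR-195 had the highest r over 12 samples, 0.42 (permutation p 0.134, adjusted 0.447), with rho 0.26 (permutation p 0.417) and r 0.23 or 0.04 without the 2 farthest for miR-15b or for miR-195.

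**Figure D4:**
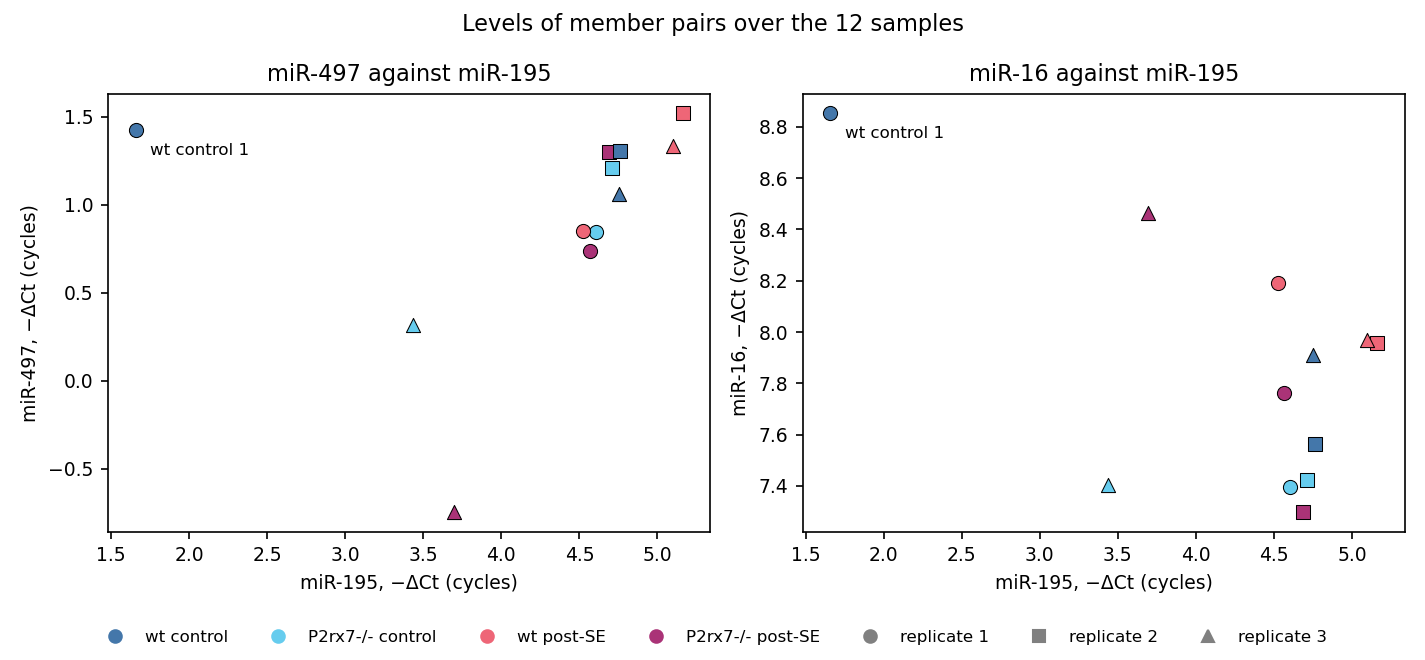
Levels of miR-497 (left) and miR-16 (right) against miR-195 (−ΔCt in cycles, log2 scale, on both axes), 1 point per pooled sample, coloured by group and shaped by replicate. In the panel of miR-195 and miR-497, wt control replicate 1 lies apart (1.66 and 1.43) from the other 11 samples, over which r was 0.86.

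For each of the 5 members, the 3 assays with the highest r over the 12 samples were listed. They were chosen as the highest of 334, so no p is given, and the r without the 2 samples farthest for the member shows how far each rests on them. For miR-16 these were miR-1839-3P (r 0.88, rho 0.80, and r 0.62 without the 2), miR-106b# (0.79, 0.83 and 0.76) and miR-139-3p (0.79, 0.70 and 0.79). For miR-497 they were miR-127 (0.92, 0.81 and 0.57), miR-28 (0.89, 0.80 and 0.65) and miR-148b (0.81, 0.92 and 0.84). For these members r without the 2 ran from 0.57 to 0.84.

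For the other members r without the 2 ran from −0.41 to 0.73. For miR-195 the assays were miR-574-3p (r 0.94, rho 0.70, and r 0.44 without the 2), miR-219-2-3p (0.91, 0.64 and 0.56) and miR-376b (0.88, 0.34 and 0.27). For miR-15a they were miR-409-5p (0.86, 0.62 and 0.14), miR-487b (0.85, 0.41 and 0.37) and miR-770-3p (0.81, 0.15 and −0.41). For miR-15b they were miR-671-3p (0.95, 0.85 and 0.73), miR-125a-3p (0.92, 0.18 and −0.23) and miR-1954 (0.92, 0.34 and −0.10). No member was among another's 3, and their ranks among each other's 334 assays ran from 32 to 320.

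The passenger strands of 4 hairpins, which are not members and are cut from the same precursors, were in the table as well. The guide was above its passenger in 12 of 12 samples for miR-16, by a mean of 11.5 ± 0.374 (SD), and for miR-15a, by 3.74 ± 1.25. It was above in 8 of the 10 samples with both for miR-15b (2.13 ± 1.57) and in 6 of 11 for miR-322 (0.02 ± 0.731). Assay efficiency differs, so these are differences in signal and not strand ratios.

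The passengers of outlying guides differed in whether they followed. In P2rx7-/- post-SE replicate 1, where miR-15a was 4.55, miR-15a# was −2.39, the lowest of its group, whose highest was −1.71, and the gap of 6.94 was the widest of the 12. In the same sample miR-15b was 2.82 and miR-15b# −0.66, between the other 2 of its group. In P2rx7-/- control replicate 1, where miR-15b was 8.13, miR-15b# had no Ct, so whether it followed cannot be read. It had none in wt post-SE replicate 1 either, where miR-15b was 1.12. In that control sample miR-16, whose other copy shares the host gene of miR-15b, was 7.39, level with the others of its group, and miR-15a was low (0.38), as was miR-15a#, the lowest of its 12 values (−3.23). In wt control replicate 1, where miR-15b was lowest (−2.03), miR-15b# was the lowest of its 10 values (−4.07), and in P2rx7-/- post-SE replicate 3, where miR-16 was high (8.46), miR-16# was the highest of 12 (−2.78). miR-16 was highest in wt control replicate 1 (8.85), and miR-16# was second highest there (−3.11).

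By FC, miR-15a# was called down in P2rx7-/- against wt controls (mean FC 0.583, 36.7% of all assays called) and after SE in wt (0.526, 35.8%). It was highest in wt control replicate 1 (−0.27), and without that sample the FCs were 0.919 and 0.829, neither called. miR-15b# had levels of −4.07, −1.84 and −2.40 in the wt controls, 0.49 and −3.18 in P2rx7-/- control replicates 2 and 3, 0.29 in wt post-SE replicate 2 and just below −3 in replicate 3, and −0.66, 1.28 and −1.91 after SE in P2rx7-/- mice. Replicate 2 was the highest sample of each group. miR-15b# was called up in each comparison. Of the 478 assays with a Ct in at least 2 samples of every group, 40.8%, 39.5%, 31.8%, 28.03% and 38.7% were called. In the same order, mean FCs of miR-15b# were 5.17 for genotype in controls, 4.58 for SE in wt and 2.81 for SE in P2rx7-/-. They were 2.84 for genotype after SE and 7.55 for P2rx7-/- post-SE against wt control. Without the highest FC, which left 1 or 2 samples, these were 0.753, 0.850, 1.14, 1.15 and 3.07, so that only the last was called, and the lowest adjusted p of the 5 in limma was 0.775. miR-16# and miR-322# were called in none of these comparisons.

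Relatives were taken as the assays of miR-103, miR-107 and miR-503, whose seeds share a run of bases with that of the family, and of miR-424. The human miRNA of that last name is the counterpart of miR-322, and the RefSeq table held no mouse entry for it. The assays of miR-351, miR-450 and miR-542, whose hairpins neighbour miR-322, were taken as well. Sequences are given for 3 of them to show how near they come, with bases 2 to 8 again in capitals.

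miR-503: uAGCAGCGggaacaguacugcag
miR-103: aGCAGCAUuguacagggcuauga
miR-107: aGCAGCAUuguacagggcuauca

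Of the 12 assays of this list, 8 had a Ct in all samples. Both counts include the passenger strand miR-503#, which is not the strand whose seed is shown. In limma 0 of 8 had an adjusted p below 0.05 in any of the 8 contrasts, and 1 had an unadjusted p below 0.05, in genotype averaged over treatments. By FC, 1 was called up and 1 down for genotype in controls (36.7% of all assays called), 2 up and 0 down for SE in wt (35.8%), and 2 up and 1 down for SE in P2rx7-/- (25.1%). For genotype after SE 2 were called up and 1 down (21.5%), and for P2rx7-/- post-SE against wt control 2 up and 0 down (33.7%). Without wt control replicate 1 the counts were 1 up and 1 down for genotype in controls (25.7%). They were 2 up and 1 down for SE in wt (23.0%). For P2rx7-/- post-SE against wt control they were 1 up and 0 down (20.3%). The up call in controls was miR-503, with a mean FC of 33.7, and 1.32 without its highest sample. The most abundant was miR-103, with group means from 3.05 to 3.52. miR-503, from the hairpin next to miR-322, was 3.11 in P2rx7-/- control replicate 1 and between −7.27 and −1.53 in the other samples. That is the sample in which miR-15b was highest.

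The label hippocampus was checked on miRNAs of known cell types. Of the neuronal list, miR-128a had a Ct in 12 samples (median level 4.66), miR-124a in 11 (4.31), miR-138 in 10 (8.23) and miR-9 in 4 (8.66), with miR-9# in 11 (6.83). The strands miR-124# (−1.48, 11 samples) and miR-138# (1.38, 12 samples) were lower. Of the lists that should be low in brain, liver miR-122 was low (−5.47, 11 samples), as were the muscle miR-206 (−3.81, 12 samples), miR-1 (−2.84 and −3.18 in 2 assays, 11 samples each) and miR-133b (−1.58, 11 samples), while miR-133a (2.86, 12 samples) was not.

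The lists of other brain and blood cell types were mixed. Endothelial miR-126 (8.31, 10 samples) and miR-126# (4.78, 11 samples) were high. Of the mural list, miR-145 was high (5.01, 12 samples), the 2 assays of miR-143 differed (3.10 and −2.47, 11 samples each), and miR-145# had a Ct in 1 sample (−8.34). Of the white cell and microglial list, the 2 assays of miR-223 (5.20 and 2.73) and miR-142-3p (1.09) had a Ct in 12 samples, while miR-142-5p was lower than the liver miRNA (−6.67, 11 samples). The oligodendrocyte medians lay near 0 (12 samples, and 11 for miR-338), with miR-219 at 0.90, miR-338-5P at 0.82, miR-219-2-3p at 0.29, miR-338 at 0.19 and miR-338-3p at −0.34, except miR-219-1-3p (−6.18, 11 samples).

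Red blood cells carry much miR-16 and miR-15b, and the list for them was miR-451, miR-144 and miR-486. Of these 3, miR-486 was the most abundant (median 2.22, 12 samples), then miR-451 (0.52, 12 samples), and miR-144 had a Ct in 8 samples (−3.87). Their summed level, as 2 raised to −ΔCt, was 24.7, 10.2 and 5.67 in the wt controls, 6.64, 8.11 and 17.9 in the P2rx7-/- controls, 4.35, 5.13 and 4.98 after SE in wt, and 6.16, 5.27 and 9.43 after SE in P2rx7-/- mice. The level of miR-16 on that scale was 462, 189 and 240, then 168, 172 and 169, then 292, 248 and 251, and then 217, 158 and 353.

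The sample with the most red cell signal, wt control replicate 1, was also the highest for miR-16, and the highest of the P2rx7-/- post-SE samples for the one was the highest for the other. Other samples went otherwise. Of the wt post-SE samples replicate 1 had the least red cell signal (4.35) and the most miR-16 (292), and wt control replicate 2 had more red cell signal than replicate 3 and less miR-16. In the P2rx7-/- controls replicate 3 had the most red cell signal while miR-16 was level among the 3. miR-15b was lowest (−2.03) in wt control replicate 1, the sample with the most red cell signal. miR-451 was lower in each wt post-SE sample than in each wt control (mean FC 0.321 ± 0.008, and 0.572 without wt control replicate 1), where miR-16 had an FC of 0.955. The part of red cells in the levels of miR-16 and miR-15b was not tested.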

How the data were processed

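The authors deposited Ct values from TaqMan OpenArray plates for 12 samples, not normalized and listed only between 10 and 28. The program that called them is not given in the sources used, and RNA integrity was not assessed. The authors' table of fold changes was not used. From the Ct values, −ΔCt was computed against each sample's mean over the 335 miRNA assays with a Ct below 28 in all samples. Contrasts were fitted with limma 3.58.1 (R 4.3.3; lmFit, eBayes), with 1 coefficient per group and Benjamini-Hochberg adjustment over the 335 assays, and the fit was tested on simulated data. Correlations used permutation tests with 100000 resamples. The rest was done in Python 3.11.15 with scipy 1.17.1, statsmodels 0.14.6, pandas 2.3.3, numpy 2.4.6 and matplotlib 3.10.9. The miRNAs named were all members, listed relatives and cell markers, the 3 nearest assays of each member, and the passenger strands. Members and lists were chosen with earlier results of these data known. Alternatives changed the normalizer, Ct limit, detection filter, weights, samples fitted, pairing, averaging and test, and left out each sample. Group medians and the pair correlations over 11 or 7 samples were added after seeing the data.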

Additional observations from a re-analysis of the deposited data

Results flagged for a closer look

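With all 12 samples, the response of miR-15b to SE went in opposite directions in the 2 genotypes. Every wt post-SE sample (1.12, 1.32 and 0.81) was above the wt control mean of −0.24, and every P2rx7-/- post-SE sample (2.82, 0.68 and 0.04) was below the P2rx7-/- control mean of 3.14. The log2 difference between the responses was −3.28 ± 2.49 (SE, adjusted p 0.851 in limma, as the interaction), so it did not pass the test. Both control means rest on single samples. Without P2rx7-/- control replicate 1 (8.13) the response in P2rx7-/- mice was 0.54, upward as in wt (1.32), so the opposite direction was gone. The difference was then −0.79 ± 1.28 (adjusted p 0.945 in limma). The 0.54 in turn includes P2rx7-/- post-SE replicate 1 (2.82). Of the other samples of that group, 0.68 lay between the remaining P2rx7-/- controls (0.47 and 0.82) and 0.04 below them. The wt response was 0.43 without wt control replicate 1. The difference was −2.39 ± 2.57 (adjusted p 0.980) without wt control replicate 1 (−2.03), and over the 12 samples left out in turn it ran from −4.62 to −0.79.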

How the results depend on the processing

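In 20 member differences (5 members, 4 comparisons), 8 of 200 values changed sign under alternatives other than leaving out a sample, 16 of 240 with 1 sample left out, and 9 of the 20 in neither. The lowest adjusted p of a member was between 0.282 and 1.000 over 177 alternative fits of the 8 contrasts, so none passed 0.05, and at most 1 member had an unadjusted p below 0.05. For genotype in controls it was 0.615, and 0.282 to 0.956 under alternatives.

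The snoRNA202 wells moved the median of all assays to −0.66 for genotype in controls, −0.81 for SE in wt and 0.87 in the interaction, and the snoRNA135 wells to −0.39 for SE in wt and 0.28 for genotype after SE. A normalizer with 1 value per sample shifts every assay of that sample alike, so the members' medians relative to that of all assays are the same by construction, −0.42 (genotype in controls), 0.07 (SE in wt), −0.18 (genotype after SE) and −0.38 (interaction). Under quantile normalization, which need not shift all alike, they were −0.31, 0.086, 0.22 and −0.44. With the snoRNA202 wells the members' medians were −1.08 for genotype in controls (4 members called, and 53.7% of all assays), −0.74 for SE in wt, 0.055 for P2rx7-/- post-SE against wt control, 0.50 for the interaction, and −0.13 for SE averaged, and miR-195 in controls was −0.11. With the snoRNA135 wells they were −0.32 for SE in wt, 0.10 for genotype after SE (miR-16 0.10) and −0.070 for the interaction. Genotype averaged turned from −0.043 to 0.12 with the snoRNA135 wells and 0.066 with the median Ct. Quantile normalization gave 0.20 for genotype after SE (miR-16 0.28), 0.0024 for miR-15a with SE in wt, and 1 call for genotype in controls (36.7% of all assays), as did the geometric mean FC (36.4%). Array weights gave −0.037 for P2rx7-/- post-SE against wt control, −0.31 for genotype averaged, −0.10 for miR-195 in controls, 0.22 for miR-16 and 0.17 for miR-497 with SE in wt, and −0.12 for miR-195 with SE in P2rx7-/-. The looser detection filter, which adds miR-322, gave −0.20 for genotype in controls and −0.078 for the interaction. The median correlation of pairs was 0.17 with the snoRNA202 wells, −0.0010 with the snoRNA135 wells, 0.018 with every assay detected, 0.025 with quantile normalization and 0.082 for deviations. The cause of these changes was not tested.

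With 1 sample left out, the members' median ran from −0.67 to −0.082 for genotype in controls (1 to 3 called, and 25.7% to 44.8% of all assays), from −0.34 to 0.43 for SE in P2rx7-/-, from −0.72 to 0.075 for genotype after SE (0 to 4 called, and 21.5% to 31.0%), from −0.23 to 0.90 for P2rx7-/- post-SE against wt control (1 to 3 called, and 20.3% to 42.1%), from −0.76 to 0.19 for the interaction, from −0.094 to 0.33 for SE averaged and from −0.43 to 0.15 for genotype averaged. Calls ran from 0 to 2 for SE in wt (23.0% to 41.2%) and from 2 to 3 for SE in P2rx7-/- (24.8% to 34.9%), and the median correlation from −0.059 to 0.044. Members that changed sign were miR-195 for genotype in controls (−0.51 to 1.04), miR-15a (−0.11 to 0.14), miR-16 (−0.34 to 0.30) and miR-497 (−0.17 to 0.16) for SE in wt, miR-15a (−0.17 to 1.71), miR-15b (−3.29 to 0.54), miR-195 (−0.34 to 0.38) and miR-497 (−0.79 to 0.23) for SE in P2rx7-/-, and miR-15a (−0.60 to 1.28), miR-15b (−0.72 to 0.67) and miR-16 (−0.51 to 0.075) after SE.

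The replicate number as a block gave a lowest adjusted p of 0.678 for genotype in controls and 0.661 for SE in wt. Correlations of deviations between samples of different groups had a median of 0.042 over 18 pairs of the same number and −0.024 over 36 of other numbers. Among the replicate 3 samples of the 3 groups other than wt control they were 0.277, 0.271 and 0.251, which are 3 of the 4 highest, and the other of the 4 was 0.263 for a pair of other numbers.

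Each group had 3 pools and each assay 1 reading per sample, which limits the precision. wt control replicate 1 differed from the other 11 samples, and comparisons with wt controls rest on it. The Ct of miR-16 was near the lowest listed. Assay signal does not give copies, and how far the assays of miR-16 and miR-195 read each other's target was not tested.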
